A study of Mus musculus with 225 samples.

Results

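The genes described here were 7 members of the insulin-like growth factor (IGF) system, namely the ligand gene *Igf1*, the receptor gene *Igf1r* and the binding protein genes *Igfbp2*, *Igfbp3*, *Igfbp4*, *Igfbp5* and *Igfbp7*. They were taken by name from the 23165 genes with raw read counts in single cells of the mouse forelimb, and all 7 were also among the 10948 genes of the table of normalized values. The cells came from forelimbs at embryonic day 12.5 (E12.5), dissected into the autopod, the distal part that gives rise to the hand, and the zeugopod, the segment of the future forearm. All embryos were *Hoxd11::GFP* heterozygous on a mixed C57Bl6CBAF1 background. In that allele a tau-GFP sequence was knocked into *Hoxd11*, so that one copy of this gene was altered in every cell of both groups and no cell with 2 intact copies was sequenced. Limbs of several littermates were pooled, and the cells with the brightest GFP were sorted. They were processed on the Fluidigm C1, a microfluidic device that isolates each cell in a chamber and copies its polyadenylated RNA there. The values therefore describe cells bright in the GFP reporter and not the limb as a whole, and *Hoxd11* itself reached 5 reads in 67 of 76 autopod and 98 zeugopod cells that were retained. No label names the embryo of a cell, so each tissue counted as 1 pooled sample and its cells as repeated readings of that sample.

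Of 225 captured cells, 26 were left out of the normalized table, 20 of the autopod and 6 of the zeugopod. The retained autopod cells (76 in all) were sequenced in run NXT0072 (59 cells) and run NXT0143 (17 cells), and zeugopod cells in run NXT0142 (58 cells) and run NXT0143 (65 cells), so that both tissues met only in NXT0143. Depth, as reads on genes in a cell, lay between 186271 and 9437447, with group medians of 3076199 and 2641867 in the autopod and 4048526 and 2659813 in the zeugopod, in the order of runs just given. The genes detected had medians of 3528, 3965, 4283.5 and 3745 in the same order. *Hoxd13*, a gene of the distal limb, had at least 5 reads in 65 of 76 autopod cells and 1 zeugopod cell, and *Shox2*, a gene of the proximal limb segments, in 0 autopod and 73 zeugopod cells. Of the limb mesenchyme genes, *Prrx1* reached 5 reads in 47 autopod and 86 zeugopod cells and *Pdgfra* in 39 autopod cells and 52 zeugopod cells of each run, whereas *Twist1* did so in 43 autopod and 21 zeugopod cells and *Prrx2* in 27 and 14. No cell held the required number of muscle, epithelium, endothelium, blood or macrophage markers. Of their genes, *Myod1*, *Myog*, *Myf5*, *Krt5*, *Cdh5*, *Emcn* and *Aif1* reached 5 reads in 0 of the retained cells. The muscle gene *Pax7* and the macrophage gene *Csf1r* did so in 15 and 17 zeugopod and in 1 and 3 autopod cells. The epithelial genes *Epcam*, *Krt14* and *Cdh1* did so in 9, 5 and 3 zeugopod and in 2, 0 and 0 autopod cells, and the endothelial gene *Kdr* in 3 zeugopod cells and 1 autopod cell. The remaining genes, *Actc1*, *Krt8*, *Pecam1*, *Cx3cr1* and *Hba-x*, did so in 1 cell each. The part of these cells in the tissue differences was not tested. Of the blood genes, 3 of 4 were not among the genes analysed here.

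IGF ligands are secreted peptides that bind the receptor tyrosine kinase IGF1R, which signals through the phosphoinositide 3-kinase and Ras arms and promotes growth of cells and tissues. IGF binding proteins are secreted partners that hold the ligands outside the cell, prolong their life and limit or focus their access to the receptor, and they are themselves cut by proteases. In the skeleton, IGF signalling is known for its part in the growth of cartilage and bone.

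With all runs pooled, the ligand, the receptor and 3 binding protein genes were lower in autopod than in zeugopod cells. For the receptor this did not hold within run NXT0143, as given below. Differences are given as the mean of log2(normalized value + 1) over autopod cells minus that over zeugopod cells, and a size of 1 or more was called a difference, since no test over pooled cells was possible. On this scale *Igfbp5* differed by −2.85, *Igf1r* by −2.55, *Igf1* by −2.51, *Igfbp4* by −1.43 and *Igfbp3* by −1.26. *Igfbp2* (−0.62) and *Igfbp7* (−0.40) did not reach the size. Thus 5 of 7 members were lower in the autopod and 0 were higher. A filter kept 4898 genes that reached 5 reads in 25% or more of autopod or of zeugopod cells. Of these, 13.4% were lower by this size and 6.06% higher, and the median gene differed by −0.12. The median of the 7 members was −1.43. *Igfbp7* did not pass this filter, and *Igf1*, *Igfbp2*, *Igfbp3* and *Igfbp5* passed it through the zeugopod only.

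Only the comparison within run NXT0143 sets both tissues side by side in 1 run. There 4 of 7 members were lower in the autopod by the size of 1, against 9.21% of all genes, and 0 were higher, against 18.4%. The receptor was the member that changed. *Igf1r* differed by 0.07 within NXT0143 and by −3.68 between NXT0072 and NXT0142, where 5 of 7 members were lower, against 24.3% of all genes, and 0 higher, against 6.64%. The median gene differed by 0.18 within NXT0143 and by −0.34 between the other runs, so the comparisons were also offset over genes in general. *Igfbp5* (−2.45 and −3.12), *Igf1* (−1.65 and −2.94), *Igfbp4* (−1.62 and −1.15) and *Igfbp3* (−1.22 and −1.36) were lower in both comparisons. For the receptor, tissue and run cannot be told apart.

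**Figure D1:**
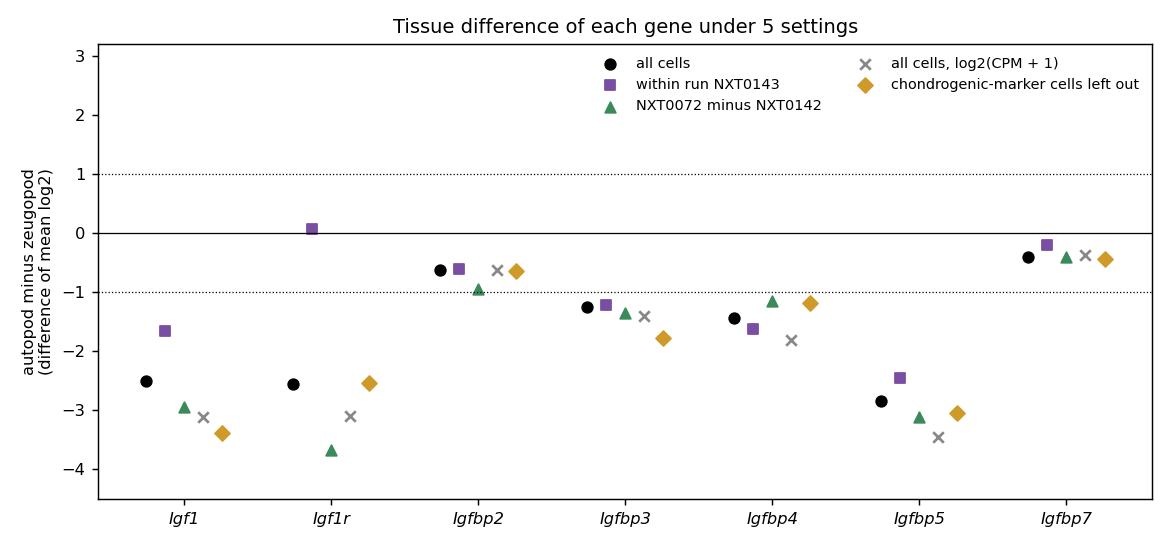
Difference between autopod and zeugopod cells for each gene, as the difference of mean log2 values, with 1 symbol per setting and dotted lines at a size of 1. In the 5 settings plotted, the symbols of *Igf1*, *Igfbp3*, *Igfbp4* and *Igfbp5* lie under −1, whereas *Igf1r* lies at 0.07 within run NXT0143 and at −3.68 between NXT0072 and NXT0142.

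*Igf1* was close to a zeugopod gene in these cells. At least 5 reads were found in 46 zeugopod cells (37.4%, 95% exact binomial interval 28.8 to 46.6) and in 1 of 76 autopod cells (1.32%, 0.0333 to 7.11). Both zeugopod runs had 23 such cells, 39.7% of NXT0142 and 35.4% of NXT0143. In run NXT0072, 0 of 59 autopod cells reached 5 reads, which allows a share of up to 5.08%, and the 59 cells held 2 reads of *Igf1* in all. These intervals, and all others given here, cover counting error only.

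Where *Igf1* was found, its level was high and uneven. The lowest, median and highest CPM values (reads of the gene per 1000000 reads on genes) over all zeugopod cells were 0, 0 and 15114, and over the 46 cells with at least 5 reads they were 1.31, 507 and 15114. One cell held 23.1% of all *Igf1* reads of the zeugopod. The single autopod cell over 5 reads, from run NXT0143, had 14385 reads, or 5833 CPM, which was 99.9% of the *Igf1* reads of that tissue. That cell also had 435 reads of *Hoxd13*, 1186 of *Igf1r* and 483 of *Igfbp4*, with 0 of *Shox2*, of *Meox2* and of *Hoxa13*. *Hoxa13*, like *Hoxd13* a gene of the distal limb, had at least 5 reads in 45 autopod and 3 zeugopod cells. Without the cell with 14385 reads the tissue difference of *Igf1* was −2.67.

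*Igf1r* was the most widely found member in the zeugopod. It had at least 5 reads in 52 of 58 and 55 of 65 cells of the 2 zeugopod runs (87% in all, 79.7 to 92.4) and in 40 of 76 autopod cells (52.6%, 40.8 to 64.2). In the autopod the shares were 47.5% (34.3 to 60.9) of NXT0072 and 70.6% (44 to 89.7) of NXT0143, with overlapping intervals. The zeugopod runs had 89.7% and 84.6%. The median CPM was 1.26 in NXT0072 and 62.8 in NXT0143 for the autopod, and 154.5 and 115.7 for the zeugopod runs NXT0142 and NXT0143. The highest normalized value of *Igf1r* in any cell, 5275, was in an autopod cell of run NXT0143. Cells without reads were present in all 4 groups, whose ranges overlapped up to 1497, the lowest of their 4 highest values.

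*Igfbp4*, whose product binds both IGF ligands, was found in overlapping shares of cells of either tissue, but its median level was higher in the zeugopod. It had at least 5 reads in 52 of 76 autopod cells (68.4%, 56.7 to 78.6) and 93 zeugopod cells (75.6%, 67 to 82.9), with overlapping intervals. Among the cells that had it, the median normalized value was 98.9 in the autopod and 325 in the zeugopod. Its median over all cells was 24.4 in the autopod, with a highest value of 2932, and 164 in the zeugopod, with a highest value of 2600. By run the medians were 20.3 (NXT0072) and 44.3 (NXT0143) in the autopod, and 56.5 (NXT0142) and 214 (NXT0143) in the zeugopod.

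*Igfbp5* had the largest difference of mean log2 values among the members, whereas as a log2 ratio of summed CPM *Igfbp3* (−5.69) differed by more than *Igfbp5* (−3.91). *Igfbp5* reached 5 reads in 73 zeugopod cells (59.3%, 50.1 to 68.1) and 11 of 76 autopod cells (14.5%, 7.45 to 24.4). The shares were alike in the 2 runs of each tissue, 13.6% and 17.6% in the autopod and 62.1% and 56.9% in the zeugopod. Among positive cells the median normalized value was 21.1 in the autopod and 77.9 in the zeugopod. Over all cells the median CPM was 0 in the autopod and 13.3 in the zeugopod, with highest values of 776 and 4063.

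*Igfbp3*, which encodes the main carrier of IGFs in adult blood, was almost absent from autopod cells. It reached 5 reads in 1 of 76 autopod cells (1.32%, 0.0333 to 7.11), with 86 reads in that cell, and in 32 zeugopod cells (26%, 18.5 to 34.7). In the 17 autopod cells of run NXT0143 it had 0 reads, which allows a share of up to 17.6%. The 2 zeugopod runs had 29.3% and 23.1% of cells with the gene, and the highest CPM was 1939. One zeugopod cell held 33.2% of its reads in that tissue.

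With all runs pooled, *Igfbp2* was the member whose direction depended on how cells were combined. At least 5 reads were found in 11 of 76 autopod (14.5%, 7.45 to 24.4) and 32 zeugopod cells (26%, 18.5 to 34.7), and the difference of mean log2 values was −0.62. When all reads of a tissue were summed, however, *Igfbp2* came to 59.2 CPM (95% Poisson interval 58.2 to 60.2) in the autopod and 29.9 CPM (29.4 to 30.5) in the zeugopod, and the log2 ratio of the sums was 0.96. One autopod cell of run NXT0072 held 52.4% of the autopod reads, with a normalized value of 6738. The sums were 71.6 CPM in autopod run NXT0072 and 34.1 CPM in zeugopod run NXT0142. Within run NXT0143 the sum was lower in the autopod, at 0.492 CPM against 24.5 CPM in the zeugopod. The median normalized value of the cells that had the gene was 15.1 in the autopod and 35.9 in the zeugopod.

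*Igfbp7*, a related gene whose product binds IGFs weakly, was the rarest member. It had at least 5 reads in 2 of 76 autopod cells, both of run NXT0143, and in 14 zeugopod cells (11.4%, 6.36 to 18.4). In run NXT0072 no autopod cell had a read, which allows a share of up to 5.08%. Its highest value was 458 CPM, in a zeugopod cell that held 51.2% of the reads of its tissue. Part of this gene overlaps *Polr2b* on the opposite strand, and the strand was not stated for the counting, so that reads in the overlap could belong to either gene.

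**Figure D2:**
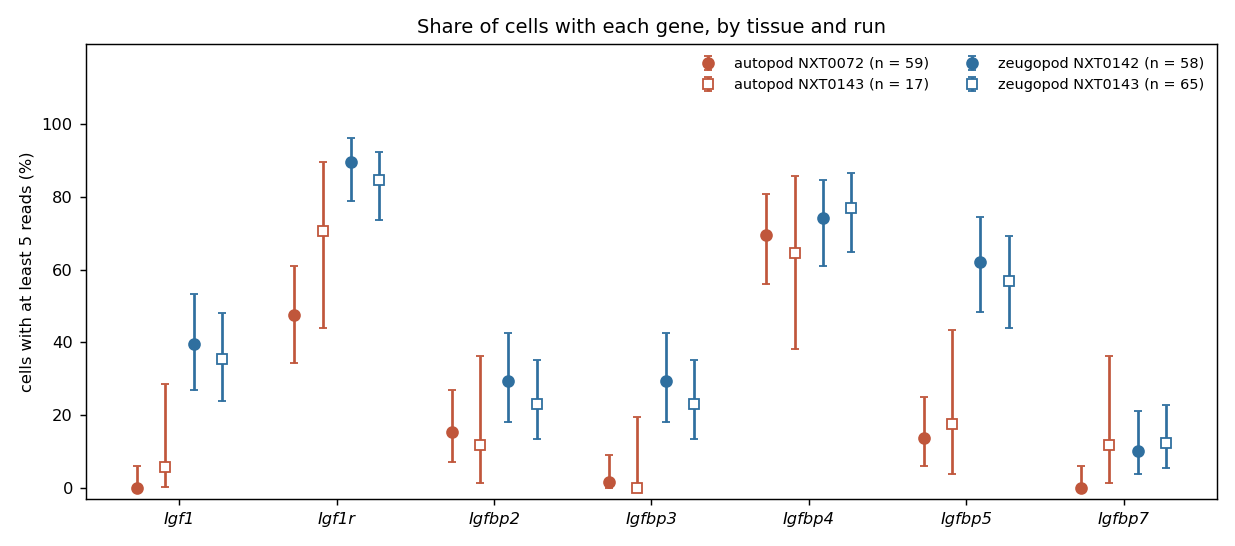
Percent of retained cells with at least 5 reads of each gene, by tissue and run, with 95% exact binomial intervals. The shares of *Igf1*, *Igfbp3* and *Igfbp5* lie lower in both autopod runs than in both zeugopod runs. For *Igf1* and *Igfbp3* the intervals of autopod run NXT0143 overlap those of both zeugopod runs. The intervals of *Igfbp4* overlap in all 4 groups.

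On the normalized scale, which is per length of gene and so allows genes to be ranked, the mean above the zero-read floor in the zeugopod was highest for *Igfbp4* (378), followed by *Igf1* (274), *Igf1r* (219), *Igfbp5* (172), *Igfbp3* (57.6), *Igfbp2* (53) and *Igfbp7* (13.6). In the autopod the order was *Igfbp4* (267), *Igf1r* (193), *Igfbp2* (128.7), *Igf1* (76.3), *Igfbp5* (22.5), *Igfbp3* (0.6) and *Igfbp7* (0.268). The interquartile ranges of zeugopod neighbours overlapped throughout. In the autopod those of *Igfbp4* (0.226 to 156) and *Igf1r* (0.222 to 77.1) overlapped, and for the 5 other genes both quartiles sat at the floor. The autopod mean of *Igf1* rested on the 1 cell with 99.9% of its reads, and for *Igfbp2* 1 cell held 52.4% of the reads.

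**Figure D3:**
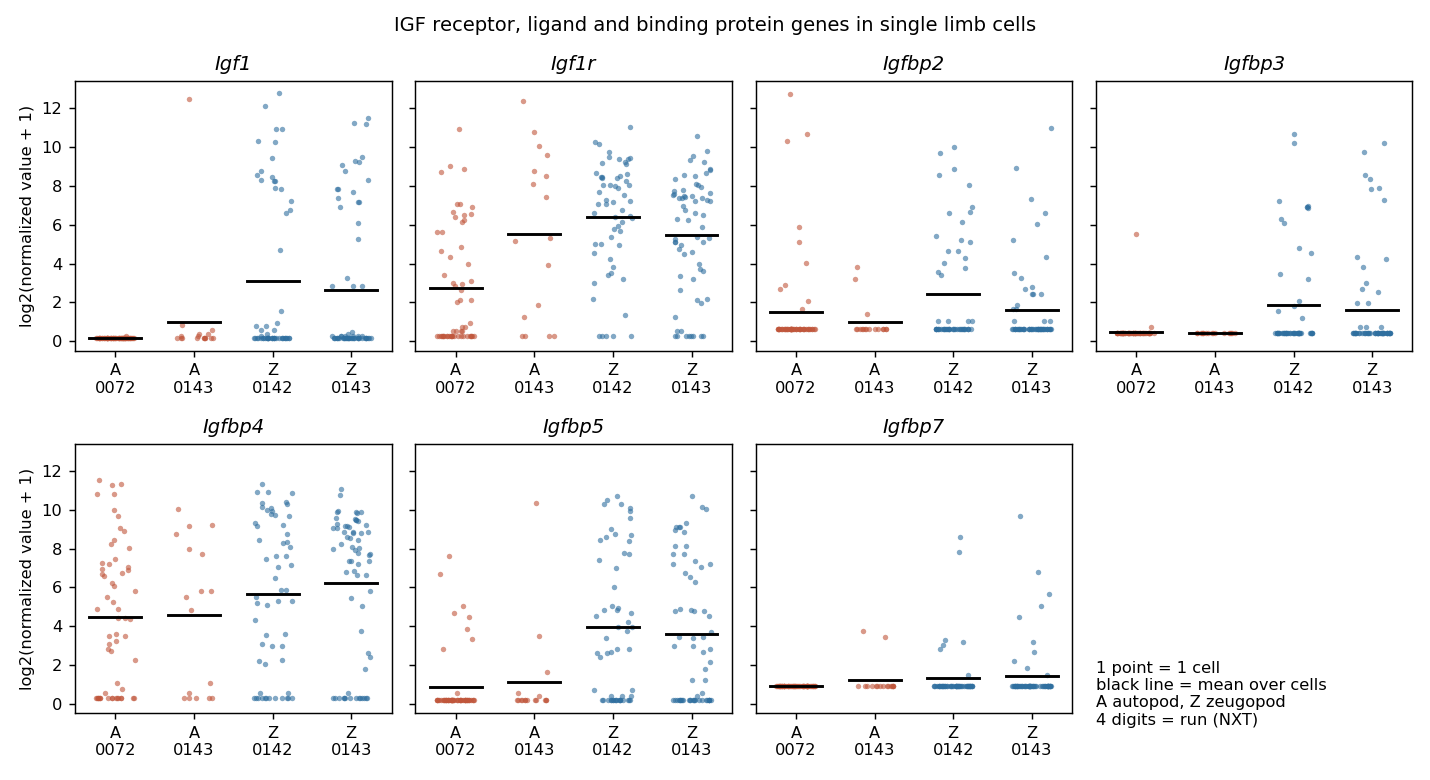
Each point is 1 retained cell, placed by log2(normalized value + 1) for the named gene, in 4 groups of tissue and run, and black lines are means over cells. Cells without reads form the lowest row of each panel, and for *Igf1* only 1 autopod cell, of run NXT0143, rises above it by a large amount.

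Genes that carry these results lie on several chromosomes of GRCm38. *Igfbp2* (plus strand, chr1:72824503-72852474) and *Igfbp5* (minus strand, chr1:72857932-72874884) are neighbours with 5457 bases between them, yet they did not share a pattern: the tissue difference was −0.62 for the former and −2.85 for the latter. *Igf1* lies at chr10:87858265-87937042 on the plus strand, *Igf1r* at chr7:67952827-68233668 on the plus strand and *Igfbp7* at chr5:77349240-77408041 on the minus strand. *Igfbp3* (minus strand, chr11:7206086-7213923) and *Igfbp4* (plus strand, chr11:99041244-99054392) share chromosome 11 but are far apart. The antisense gene *Igf1os*, which overlaps *Igf1*, had 0 reads in the retained cells.

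The 120 bases before the RefSeq start (build GRCm38.p6) are shown for *Igf1*, *Igfbp4* and *Igfbp3*. *Igfbp4* and *Igfbp3* were each found more often in zeugopod cells with *Igf1* than in those without it, as described next. Also shown are those of *Igf1r* and *Igfbp5*, which did not follow *Igf1* in that tissue. Capitals mark the TATA box letters TATAAA, the GC box letters GGGCGG and the letters of the CCAAT box on either strand, none of which overlapped another in these windows.
Igf1, chr10:87860991-87861110, plus strand: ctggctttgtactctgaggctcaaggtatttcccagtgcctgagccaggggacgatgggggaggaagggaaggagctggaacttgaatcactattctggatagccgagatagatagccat
Igfbp4, chr11:99041124-99041243, plus strand: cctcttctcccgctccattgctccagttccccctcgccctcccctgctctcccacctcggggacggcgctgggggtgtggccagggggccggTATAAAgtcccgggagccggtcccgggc
Igfbp3, chr11:7213924-7214043, minus strand: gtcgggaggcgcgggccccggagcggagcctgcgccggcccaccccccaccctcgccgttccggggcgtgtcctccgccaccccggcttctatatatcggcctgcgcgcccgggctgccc
Igf1r, chr7:67952137-67952256, plus strand: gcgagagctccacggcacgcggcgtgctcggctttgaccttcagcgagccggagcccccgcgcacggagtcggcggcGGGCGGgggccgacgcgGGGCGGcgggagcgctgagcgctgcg
Igfbp5, chr1:72874866-72874985, minus strand: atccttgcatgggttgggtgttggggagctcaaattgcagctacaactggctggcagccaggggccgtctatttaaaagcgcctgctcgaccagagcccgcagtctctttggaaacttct

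Within the 250 bases before the start, the letters TATAAA stood in the *Igfbp4* window only, 28 bases before the start, against 12.4% of 32851 promoter entries. GGGCGG, present in 32.7% of entries, stood at 2 places before *Igf1r*, 3 before 1 of the 2 *Igfbp2* starts and 4 before *Igfbp7*. CCAAT, present in 33.8%, stood once before *Igf1*, outside the bases printed. The broadly found *Igf1r* had 42 CG dinucleotides in its 250 bases, *Igfbp3* 32, *Igfbp4* 22, *Igfbp5* 10 and *Igf1* 5, with a median of 6 over all entries. *Igf1*, *Igfbp4* and *Igfbp3* thus did not share a motif among those searched. These are matches of letters, and no binding was measured.

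Within the zeugopod, *Igfbp4* and *Igfbp3* were each found more often in cells with *Igf1* than in cells without it. *Igfbp4* had at least 5 reads in 43 of 46 cells with *Igf1* (93.5%, 82.1 to 98.6) and in 50 of 77 cells without it (64.9%, 53.2 to 75.5). *Igfbp3* was found in 20 of 46 cells with *Igf1* (43.5%, 28.9 to 58.9) and in 12 of 77 without it (15.6%, 8.32 to 25.6). Both patterns held in each run. In NXT0142, *Igfbp4* was found in 20 of 23 cells with *Igf1* and 23 of 35 without, and *Igfbp3* in 11 and 6. In NXT0143, *Igfbp4* was found in 23 of 23 cells with *Igf1* and 27 of 42 without, and *Igfbp3* in 9 and 6. Spearman coefficients over all zeugopod cells were 0.422 for *Igf1* and *Igfbp4* and 0.377 for *Igf1* and *Igfbp3*. For *Igfbp3* and *Igfbp4* the coefficient was 0.196. Cells with *Igf1* also had more genes detected, with a median of 4337.5 against 3802. Given the number of genes detected, the coefficients with *Igf1* were 0.319 and 0.299, and that of *Igfbp3* and *Igfbp4* was 0.117.

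The receptor and *Igfbp5* did not follow the ligand. *Igf1r* was found in 39 of 46 cells with *Igf1* and 68 of 77 without it, or 84.8% and 88.3%, and the coefficient of the pair was 0.0967. *Igfbp5* was found in 58.7% of cells with *Igf1* and 59.7% of those without, with a coefficient of −0.015. *Igfbp4* and *Igfbp5* were both found in 55 cells, where the product of their shares gives 55.2. Among the 21 pairs of members, 4 had a coefficient of 0.3 or more in the zeugopod, the remaining ones being *Igfbp3* with *Igfbp5* (0.303) and with *Igfbp2* (0.301). In the autopod 1 pair did, *Igfbp2* with *Igfbp3* (0.406), but *Igfbp3* had a read in only 2 autopod cells. All coefficients describe cells that share a pool, library preparation and size factors, and none was tested.

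**Figure D4:**
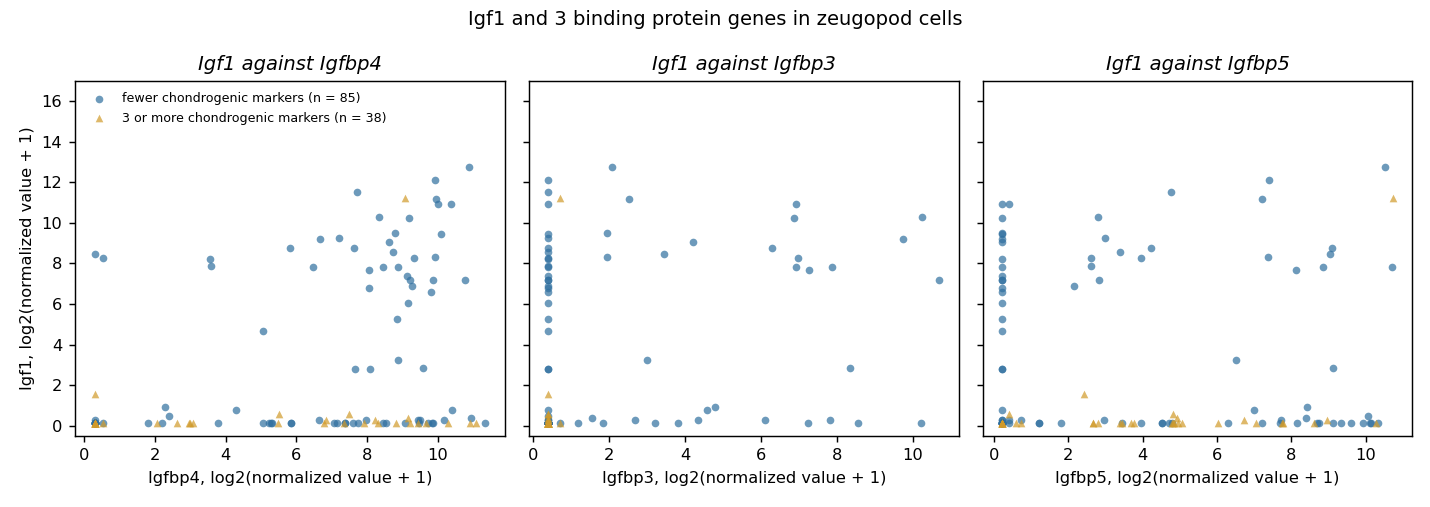
Each point is 1 zeugopod cell, placed by log2(normalized value + 1) of *Igf1* on the vertical axis and of *Igfbp4*, *Igfbp3* or *Igfbp5* on the horizontal axis, with triangles for cells that have 3 or more chondrogenic markers. Cells high in *Igf1* lie mostly at high *Igfbp4*, with 43 of 46 cells over 5 reads of both, and spread along the whole axis of *Igfbp5*.

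Cells of the zeugopod held more kinds of binding protein transcript than those of the autopod. Counting *Igfbp2*, *Igfbp3*, *Igfbp4*, *Igfbp5* and *Igfbp7* at 5 reads, 16 autopod cells had none, 44 had 1, 15 had 2 and 1 had 3. In the zeugopod 10 cells had none, 31 had 1, 45 had 2, 26 had 3, 10 had 4 and 1 had all 5. The mean was 1.01 genes per autopod cell and 1.98 per zeugopod cell, and 2 or more were found in 21.1% (12.5 to 31.9) and 66.7% (57.6 to 74.9) of cells. After each cell was thinned to 500000 reads, 11.1% of autopod and 58.8% of zeugopod cells had 2 or more, with 4 shallower cells of each tissue left out. In the autopod, *Igfbp4* alone was the most frequent state, in 37 of 76 cells, against 18 cells in the zeugopod. Receptor transcripts stood beside at least 1 of these transcripts in 31 of the 40 autopod cells with *Igf1r*, and in 46 of 52 and 53 of 55 such cells of the zeugopod runs. With or without *Igf1r*, all but 16 of 76 autopod cells had at least 1 of them, as did all but 6 of 58 and 4 of 65 zeugopod cells.

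Zeugopod cells with chondrogenic markers seldom held the ligand. A cell was put in this class when it had at least 5 reads of 3 or more of *Sox9*, *Col2a1*, *Acan*, *Col9a1* and *Matn1*, which held for 38 zeugopod and 35 autopod cells. The class is a cut through a range, with 38 zeugopod and 24 autopod cells at exactly 2 markers. In the zeugopod, *Igf1* was found in 3 of 38 cells of the class (7.89%, 1.66 to 21.4) and in 43 of 85 other cells (50.6%, 39.5 to 61.6), a difference of −3.37. *Igfbp3* was found in 0 of 38, which allows up to 7.89%, and in 32 of 85 (37.6%, 27.4 to 48.8), a difference of −1.90. *Igfbp4* was found in 22 of 38 (57.9%) and 71 of 85 (83.5%), a difference of −2.13. The same 3 genes were lower in the class in both runs. The differences in NXT0142 and NXT0143 were −4.19 and −2.65 for *Igf1*, −2.15 and −1.68 for *Igfbp3* and −3.21 and −1.06 for *Igfbp4*.

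The receptor and *Igfbp5* were found in overlapping shares of cells with and without these markers. *Igf1r* was found in 34 of 38 cells of the class and 73 of 85 others, with a difference of 0.73, and *Igfbp5* in 24 of 38 and 49 of 85, with a difference of −0.22. Altogether 3 of 7 members passed a size of 1 in the zeugopod, against 15.1% of all genes, and the median gene differed by −0.21. In the autopod 1 of 7 passed, against 29.6% of genes, with a median gene of −0.55. That member was *Igfbp4*, found in 20 of 35 cells of the class and 32 of 41 others, a difference of −1.95, and it was lower in both runs (−2.11 and −1.37). The tissue comparison was also made without the cells of the class, with all runs pooled. *Igf1* then differed by −3.39, *Igfbp5* by −3.04, *Igf1r* by −2.53, *Igfbp3* by −1.78 and *Igfbp4* by −1.19, each past the size of 1. For *Igf1r*, tissue and run cannot be told apart here either. The part of chondrogenic cells in the tissue differences was not tested. Without these cells, *Igfbp4* was found in 41 of 43 zeugopod cells with *Igf1* and 30 of 42 without, and *Igfbp3* in 20 and 12. The coefficients with *Igf1* in these cells were 0.412 for *Igfbp4* and 0.262 for *Igfbp3*, and 0.3 and 0.162 given the number of genes detected, so that *Igfbp3* fell under 0.3 and its shares (46.5%, 31.2 to 62.3, and 28.6%, 15.7 to 44.6) had overlapping intervals.

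**Figure D5:**
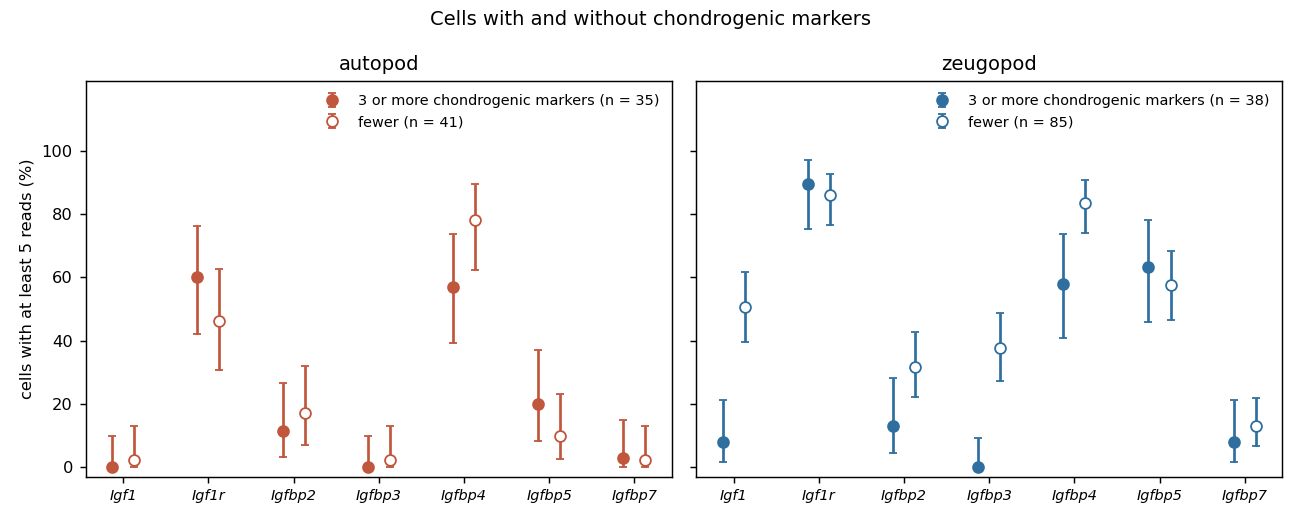
Percent of cells with at least 5 reads of each gene, in cells with 3 or more chondrogenic markers (filled) and in the other cells (open), for each tissue, with 95% exact binomial intervals. In the zeugopod the intervals of *Igf1* and *Igfbp3* do not overlap between the classes, whereas those of *Igf1r* and *Igfbp5* do.

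The other classes were defined in the same way. The class with at least 5 reads of 3 or more of the cell cycle genes *Mki67*, *Top2a*, *Ccnb1* and *Cdk1* had more *Igfbp4* in both tissues, by 2.09 in each, where the median gene differed by 1.01 in the autopod and 0.80 in the zeugopod. *Igfbp5* went the other way, and was found in 0 of 18 autopod cells of the class, which allows up to 16.7%, and 11 of 58 others. In the zeugopod it was found in 10 of 23 cells of the class (43.5%, 23.2 to 65.5) and 63 of 100 others (63%, 52.8 to 72.4), a difference of −1.12. Thus 1 of 7 members passed the size in the autopod, against 52.5% of genes, and 2 of 7 in the zeugopod, against 41.8%. Cycling-marker cells had more genes detected than the other cells, with medians of 4170.5 against 3402 in the autopod and 5053 against 3900.5 in the zeugopod. In the autopod 16 of the 18 cells of the class were of run NXT0072. There *Igfbp4* had a Spearman coefficient of 0.647 with the number of genes detected over all autopod cells. The part of genes detected and of run in these values was not tested.

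Tendon markers (2 or more of *Scx*, *Tnmd* and *Tnc*) were held by 17 zeugopod cells and 0 autopod cells. In the tendon class *Igfbp5* was higher by 1.79 and *Igfbp4* by 1.13, and *Igf1* was lower, at −1.24, so 3 of 7 members passed, against 18.2% of genes. The shares of cells with *Igf1* were 35.3% in the class and 37.7% in the others, and with *Igfbp4* 76.5% and 75.5%. The *Igfbp5* value was 3.82 in run NXT0142, where all 11 cells of the class had the gene, and −1.66 in run NXT0143, where 2 of 6 had it. *Igfbp3* was found in 9 of 17 cells of the class (52.9%, 27.8 to 77) and 23 of the others (21.7%, 14.3 to 30.8), with a difference of 0.95. Interdigit markers (2 or more of *Aldh1a2*, *Msx2* and *Bmp7*) were held by 17 autopod cells, in which *Igfbp4* was higher by 1.18, where the median gene differed by 0.85. That was 1 of 7 members, against 44.7% of genes. The *Igfbp4* value fell short of the size on CPM values (0.82) and in NXT0072 (0.61), and was 2.57 in NXT0143, where the class had 6 cells.

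Other genes of the pathway were read from a list of 46, of which 23 passed the filter on reads. Of these 23, 2 were lower in the autopod by the size of 1, against 13.4% of all genes, and 1 was higher, against 6.06%. Their median was −0.17, where that of all genes was −0.12. *Igf2*, the ligand gene of embryonic growth, was found in 71 of 76 autopod cells and 100% of zeugopod cells, and differed by −2.14, with −2.37 within NXT0143 and −2.25 between the other runs. Every zeugopod cell with *Igf1r* thus also had *Igf2*, whereas 39 of them had *Igf1*, and of the 40 such autopod cells 37 had *Igf2* and 1 had *Igf1*. *Igf2r*, whose product takes up IGF2 for degradation, differed by −2.52, with −0.84 within NXT0143 and −3.36 between the other runs. The insulin receptor gene *Insr* (−0.08) and the kinase gene *Akt1* (−0.17) did not reach the size. These genes and the next were named after their values were seen. The binding protein genes *Igfbp1* and *Igfbp6* had at least 5 reads in 0 retained cells, and *Pappa*, a protease of IGFBP4, in 4 autopod and 13 zeugopod cells.

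The cells were sorted by a reporter of *Hoxd11*, and *Hoxd10* to *Hoxd13* are the genes the study turns on. In the zeugopod the Spearman coefficients of the 7 members with *Hoxd11* ran from −0.0968 to 0.0895, and with *Hoxd10* from −0.0911 to 0.098. *Hoxd12* and *Hoxd13* had at least 5 reads in 2 and 1 zeugopod cells. In the autopod *Igfbp4* had the highest coefficient with each of *Hoxd10* (0.32), *Hoxd11* (0.43), *Hoxd12* (0.354) and *Hoxd13* (0.5). For *Igfbp4* and *Hoxd13* the coefficient was 0.581 in NXT0072 and 0.629 in NXT0143, but it was 0.231 over all autopod cells on CPM values and 0.312 given the number of genes detected. With *Hoxd10*, *Hoxd11* and *Hoxd12* the coefficients were 0.142, 0.137 and 0.281 on CPM values and 0.121, 0.149 and 0.143 given the number of genes detected. *Igfbp4* itself had a coefficient of 0.647 with the number of genes detected in the autopod. In the zeugopod *Igf1*, *Igfbp4* and *Igfbp3* had coefficients of 0.447, 0.413 and 0.33 with *Shox2*, and *Shox2* was found in 37 of 46 cells with *Igf1* and 36 of 77 without it.

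The genes most like each member were sought among 4110 genes that reached 5 reads in 25% or more of all retained cells, by the mean Spearman coefficient over the 4 groups of tissue and run. For *Igf1* they included *Rbbp4* at 0.44 and *Sec62* at 0.43, where the median gene was at 0.13. In the autopod these values rest on few cells, since *Igf1* had any read in 1 and 7 cells of its 2 runs. In the zeugopod alone the coefficients of *Rbbp4* were 0.465 and 0.371. *Dlk1*, a gene of the Notch ligand family picked after its values were seen, had 0.615 and 0.362 in the zeugopod runs, and 0 reads in all 76 autopod cells. *Igfbp4* was most like *Hsp90ab1* (0.49), *Psma7* (0.49) and *Tuba1a* (0.47), with a median gene at 0.18, but on CPM values *Hsp90ab1* was at 0.23 and at rank 223. *Igf1r* was most like *Gtf2f1* (0.38), *Gnb1* (0.37) and *Dlc1* (0.37), and *Igfbp2* was most like *Srsf5* (0.38), *Gpc3* (0.33), a glypican gene, and *Morf4l2* (0.32). *Igfbp5* was most like *Bend4* (0.34), *Angptl1* (0.31) and *Cmip* (0.30). The value of *Bend4* was 0.902 in the 17 autopod cells of NXT0143, of which 3 had at least 5 reads of *Igfbp5*, but 0.175 and 0.0646 in the zeugopod runs.

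*Igfbp3* had no read in 1 autopod group, so its mean is over 3 groups. It was most like *Meox2* (0.41), *Add3* (0.36) and *Osr1* (0.35), of which *Meox2* and *Osr1* encode transcription factors of limb mesenchyme. In the zeugopod runs the coefficients were 0.416 and 0.443 for *Meox2* and 0.559 and 0.535 for *Osr1*. *Igfbp7*, also over 3 groups, was most like *Dnajc10* (0.33), *Med23* (0.31) and *Clock* (0.31), with a median gene at 0.02. The autopod group among them rests on 2 of 17 cells with any read of *Igfbp7*, and its coefficients were 0.355, 0.441 and 0.49. In the zeugopod runs they were 0.364 and 0.258 for *Dnajc10*, 0.24 and 0.24 for *Med23*, and 0.339 and 0.0919 for *Clock*.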

How the data were processed

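Reads were mapped by the authors to mm10 (GRCm38) and the ERCC spike-ins with Bowtie2, and counted per ENSEMBL gene. The authors deposited raw counts for 225 cells and, for 199 cells, a normalized signal. They describe spike-in size factors centred per batch and a correction for gene length, and do not say whether a batch was a run. All values were whole multiples of the lowest value of their gene. They were therefore read as whole numbers raised by 1 and divided by gene length in kb, a form that the authors do not state. A gene without reads therefore sits at a floor, and its log2 differences are understated. The spike-in columns did not follow the size factors and were not used. Of the captured cells, 198 had over 2000 genes with a read, a minimum the authors state, and 2 retained cells did not.

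A gene was called found at 5 reads. Differences are of mean log2(value + 1), with a size rule of 1 in place of a test. CPM was computed from raw counts, and cells were thinned with seed 42. Shares have Clopper-Pearson and sums Poisson 95% intervals, and a count of 0 is given the share that 3 cells would make. The limit of 0.3 for coefficients was set after the values were seen. Python 3.11.15, pandas 2.3.3 and scipy 1.17.1 were used, with GENCODE M21 positions and RefSeq promoters. Scripts were tested on simulated data. Named genes were the members, pathway genes past the size in 1 direction in both run comparisons, the 3 genes most like each member, and *Hoxd10* to *Hoxd13*; a few genes that this rule names are not reported here. Members and lists were chosen with earlier results of these data known. In all, 27 sets of alternatives were tried, and 5 were added after seeing the data. No column held the authors' own comparisons.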

Additional observations from a re-analysis of the deposited data

Results flagged for a closer look

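*Igf1r* differed between autopod and zeugopod by 0.07 within run NXT0143 and by −3.68 when run NXT0072 was set against run NXT0142. The first value does not reach the size of 1 and the second does, and the difference between them was not tested. The autopod group of NXT0143 holds 17 cells, with a median of 3965 genes detected against 3528 in NXT0072. *Igf2r* showed a like offset, with −0.84 within NXT0143 and −3.36 between the other runs.

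In zeugopod cells with 2 or more tendon markers, *Igfbp5* was higher than in the other cells by 3.82 in run NXT0142 (11 cells of the class) and lower, at −1.66, in run NXT0143 (6 cells). *Igf1r* went the same way, with 1.61 in NXT0142 and −4.07 in NXT0143. These opposite directions were not tested either. Over both runs the values were 1.79 for *Igfbp5* and −0.34 for *Igf1r*.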

How the results depend on the processing

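No paired analysis was possible because the numbers shared by autopod and zeugopod labels only name cells, and no result came from a test. For the same reason, and with 1 pooled sample per tissue, no replicate could be left out. The count of 5 members lower and 0 higher in the autopod stayed within 1.5 times under every alternative tried. *Igf1r* fell short of the size within NXT0143, at 0.07, and *Igfbp3* did so, at −0.68, with a pseudocount of 10. *Igfbp7* passed it, at −2.64, as a ratio of summed CPM. Of the 23 pathway genes, 4 rather than 2 were lower between NXT0072 and NXT0142, where 24.3% of all genes were. Within NXT0143, 4 rather than 1 were higher, where 18.4% of all genes were. Members past the size in the chondrogenic class of the autopod numbered 2 in NXT0143 rather than 1, where the class had 8 cells. In the tendon class they numbered 5 in NXT0142 rather than 3. In the interdigit class they numbered 0 on CPM and 0 in NXT0072, but 4 in NXT0143, rather than 1, and in the cell cycle class of the autopod 3 on CPM rather than 1. Of the 21 genes named as most like a member, 9 were named again on CPM. Of 98 shares under alternatives, 80 stayed within the interval of the share reported, and of 198 coefficients 183 stayed on the same side of 0.3 in size. The causes were not tested. Depth limits the rare genes: after thinning to 500000 reads *Igfbp3* and *Igfbp7* reached 5 reads in 0 of 72 autopod cells, and in 22 and 7 of the zeugopod cells kept.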

Other observations

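Low numbers of *Igf1* reads were unevenly spread over the autopod runs. Between 1 and 4 reads were present in 6 of the 17 autopod cells of NXT0143, the run shared with zeugopod cells and holding the autopod cell with 14385 reads, and in 1 of the 59 cells of NXT0072. *Shox2*, with up to 10012 reads in zeugopod cells of NXT0143, had 0 reads in the same 17 cells, and *Dlk1*, with up to 1606, and *Igfbp3*, with up to 3112, also had 0. *Meox2*, with up to 12184 reads in zeugopod cells of that run, had 1 to 4 reads in 4 of the 17 cells, and *Igfbp5* in 2. At a limit of 1 read instead of 5, *Igf1* would have been found in 10.5% of autopod cells.

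Of the cells left out of the normalized table, 2 of 20 from the autopod and 1 of 6 from the zeugopod had at least 5 reads of any of the 7 genes, namely *Igfbp4* in 2 and *Igf1r* in 1 of the autopod cells and *Igfbp5* in the zeugopod cell.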
